A study of Mus musculus with 6 samples.

Results

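A set of 9 tissue-homing chemokine receptors, Ccr2, Ccr4, Ccr6, Ccr8, Ccr9, Cxcr3, Cxcr5, Cxcr6 and Cx3cr1, were followed in double negative T cells converted from CD4+ T cells (cDNT) of C57BL/6 mice, with and without IL-10. These 9 genes were taken from a named list, not by their values, though earlier results of these data were known when it was chosen. All 9 were found by Ensembl identifier among the 29393 genes of the count table. Per the methods, CD4+CD25- T cells from spleens and lymph nodes of CD45.1 C57BL/6 mice were cultured in the presence of mature dendritic cells with IL-2, and the converted cells were isolated by flow sorting; the labels give adult spleen. The W/ IL-10 group was given IL-10 (50 ng/ml, 24 h) and the W/O IL-10 group was not, with 3 libraries per group. The methods name anti-CD3/CD28 antibodies for the stimulated cells, whereas the sample labels name IL-10 alone and do not say whether the controls had them. Neither source says that the 3 libraries of a group came from separate mice or cultures, so the p-values measure the spread between libraries, which may be technical.

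Chemokine receptors are G protein-coupled receptors in the membrane of leukocytes. They sense gradients of chemokines and direct cells from blood into tissue, so the set of receptors a T cell carries decides where it can go. In T cells, CXCR3, CXCR6 and CCR2 are known for entry into inflamed tissue such as liver and fat, CCR4 and CCR8 for skin homing and for type 2 and regulatory T cells, CCR6 for Th17 cells, CXCR5 for B cell follicles, CCR9 for small intestine and CX3CR1 for cytolytic cells that stay in vessels. IL-10 signals mainly through STAT3.

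Total counts lay between 21619420 and 23967088 per library, and 3 counts, taken as the floor, were worth 0.123 to 0.146 CPM (CPM is the count scaled to a common library size, here with TMM factors). This floor covers counting error only. Socs3 and Bcl3, known targets of STAT3, were called higher W/ IL-10, with log2 fold changes of 1.82 and 1.69, among 9 genes of an IL-10 response list of which 1, Il10ra, was called lower. All 11 T cell markers were measured and none was called by edgeR, DESeq2 or limma-voom. At an unadjusted p-value under 0.05 in edgeR, 4 were higher and 1 lower. Among all 14916 tested genes, 1130 were higher and 1069 lower at this p-value, the background for such counts in every list below. Their summed level was 5593 to 6257 CPM W/O IL-10 and 6680 to 7143 W/ IL-10, without overlap. Of the coreceptors, Cd4 had 8 to 38 counts per library, but Cd8a had 2316 to 3786 and Cd8b1 787 to 1521, so the transcripts of CD8 were present in cells labelled double negative. Cd8b1 was called higher W/ IL-10 by edgeR, DESeq2 and limma-voom (log2 fold change 0.67, adjusted p = 0.0306, edgeR), and Cd8a rose by less than the fold threshold (0.56, adjusted p = 0.0369, edgeR). The coreceptors summed to 129.8 to 164.7 CPM W/O IL-10 and to 198.5 to 232.9 W/ IL-10, without overlap. All 7 B cell markers were also detected, with a summed level of 65.5 to 162 CPM W/O IL-10 and 64.2 to 112 W/ IL-10. Among the 17 dendritic cell and myeloid markers, Csf1r, Flt3, Clec9a and Fcgr1 stayed under 10 counts in every library. Itgax was called higher by edgeR, DESeq2 and limma-voom, and Ly6c2 by DESeq2 alone of these. The list summed to 450.2 to 691.8 CPM W/O IL-10 and to 770.0 to 871.0 W/ IL-10, without overlap. Once Ly6c2, which T cells also express, was left out, the sums were 116 to 142 and 121 to 136 CPM, with overlap. These sums hide opposite changes. The 11 tested markers of the full list had 4 positive and 7 negative log2 fold changes, with a median of -0.44. Of 10 NK cell markers, 2 (Gzma and Nkg7, which cytotoxic T cells also express) were called higher and 1 (Ncr1) lower by edgeR, DESeq2 and limma-voom. The sum of the 10 was 2904 to 3631 CPM W/O IL-10 and 4579 to 6195 W/ IL-10, without overlap. Single markers went both ways, with 5 positive and 5 negative log2 fold changes and a median of 0.11. Of 3 tested plasmacytoid dendritic cell markers none was called by edgeR, DESeq2 or limma-voom (1 lower at an unadjusted p-value under 0.05 in edgeR). The 5 listed summed to 147.0 to 171.7 CPM W/O IL-10 and 122.7 to 136.3 W/ IL-10, without overlap. Siglech and Klk1 of this list stayed under 10 counts in every library. Over all libraries, Tcf4 had 84.83 to 125.3 CPM and Bst2 36.41 to 50.25. The part of these markers in the values of the receptors was not tested, and the B cell values are set beside Cxcr5 without a test. In bulk libraries, fewer cells of a type and less RNA per cell cannot be told apart.

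Ccr2 and Cxcr6 were by far the most abundant of the receptors. Per length of exon, W/O IL-10 cDNT had 106 ± 27.0 CPM per kb of Ccr2 (SD, n = 3), 103 ± 7.04 of Cxcr6 and 11.4 ± 2.45 of Cxcr3. The other members reached at most 2.26 CPM per kb in any library. Ccr2, Cxcr6 and Cxcr3 together left 2.05% to 2.76% of the summed level per length to the other 6 receptors W/O IL-10, and 1.01% to 1.501% W/ IL-10. Cxcr5 had 1.87 ± 0.407 CPM per kb, Ccr4 1.67 ± 0.312, Cx3cr1 0.961 ± 0.0458, Ccr6 0.543 ± 0.210, Ccr8 0.462 ± 0.0738 and Ccr9 0.0417 ± 0.0324 in the same W/O IL-10 cells (SD, n = 3). In this order, Ccr2 could not be told from Cxcr6, Cxcr5 from Ccr4, or Ccr6 from Ccr8, since the libraries of these neighbours overlapped. W/ IL-10, Ccr2 with 150 ± 12.2 CPM per kb stood above Cxcr6 with 102 ± 11.1 in all 3 libraries, and Ccr4 moved from the fifth to the sixth place, below Cx3cr1. There the libraries of Cxcr5 and Cx3cr1, of Ccr4 and Ccr6 and of Ccr6 and Ccr8 overlapped.

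**Figure D1:**
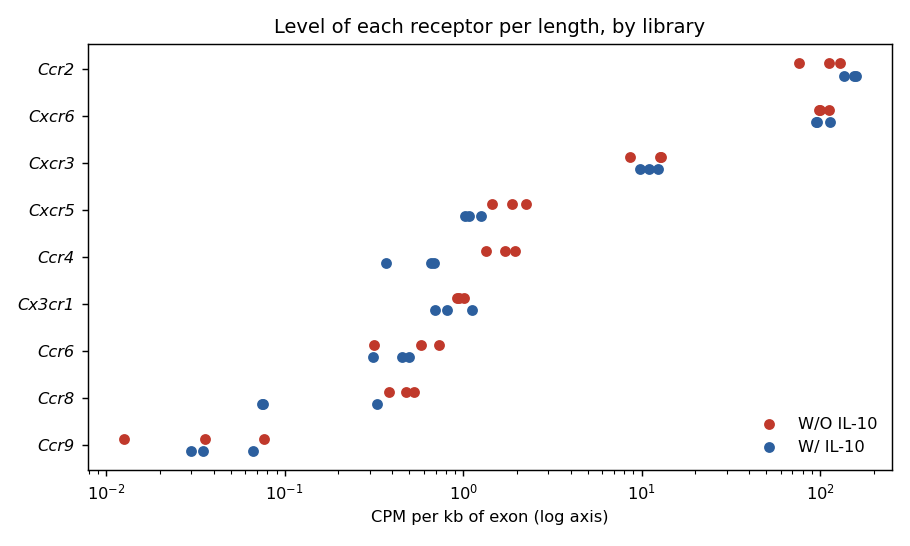
Level of the 9 receptors in each library, as CPM per kb of exon on a log axis; each point is 1 library, red W/O IL-10 and blue W/ IL-10. Ccr2, Cxcr6 and Cxcr3 lie apart from the other 6, and the points of Ccr2, Ccr4, Ccr8 and Cxcr5 do not overlap between treatments.

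Of the 9 receptors, Ccr4 was the one called differentially expressed, and it fell. A gene was called at a fold change of at least 1.5 and an adjusted p-value under 0.05, and 8 members had the 10 counts in at least 3 libraries needed for the test. Ccr9 did not and counts as not measured. Among all 14916 tested genes, 0.677% were called lower and 0.778% higher, and 2.19% had an adjusted p-value under 0.05 at any fold change. No member was called higher by edgeR, DESeq2 or limma-voom. At an unadjusted p-value under 0.05 in edgeR, 1 member (Ccr2) was higher and 3 (Ccr4, Ccr8 and Cxcr5) were lower. Among all 14916 tested genes, 1130 were higher and 1069 lower at this p-value. In 3 members (Ccr4, Ccr8 and Cxcr5) every W/ IL-10 library was below every W/O IL-10 library, which held for 11.2% of all tested genes, and in Ccr2 every one was above, which held for 11.3%. Ccr8 had 10 counts only W/O IL-10, and so could enter the test only through the group in which it was high.

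**Figure D2:**
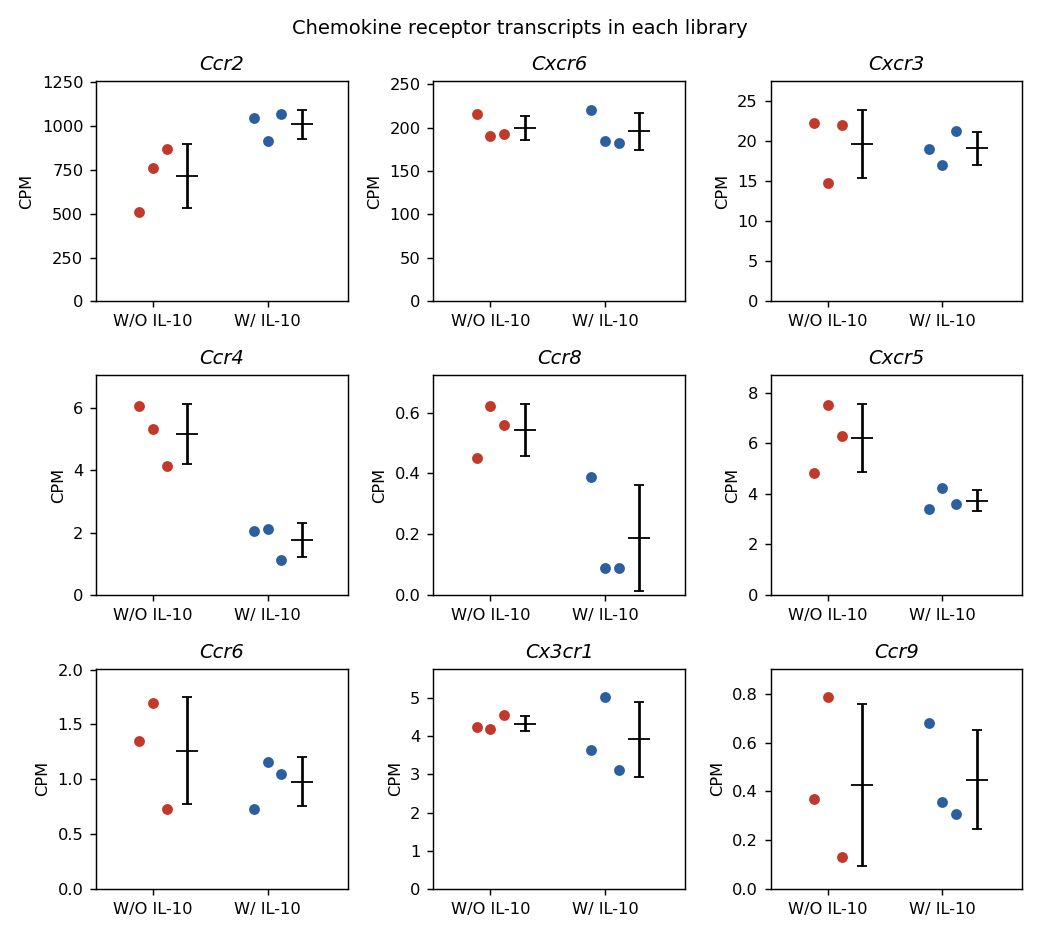
CPM of each receptor in each library, 3 W/O IL-10 (red) and 3 W/ IL-10 (blue), with the mean and SD as black bars beside the points; each panel has its own axis from 0. The groups do not overlap in Ccr2, Ccr4, Ccr8 and Cxcr5, and they overlap in the other 5.

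**Figure D3:**
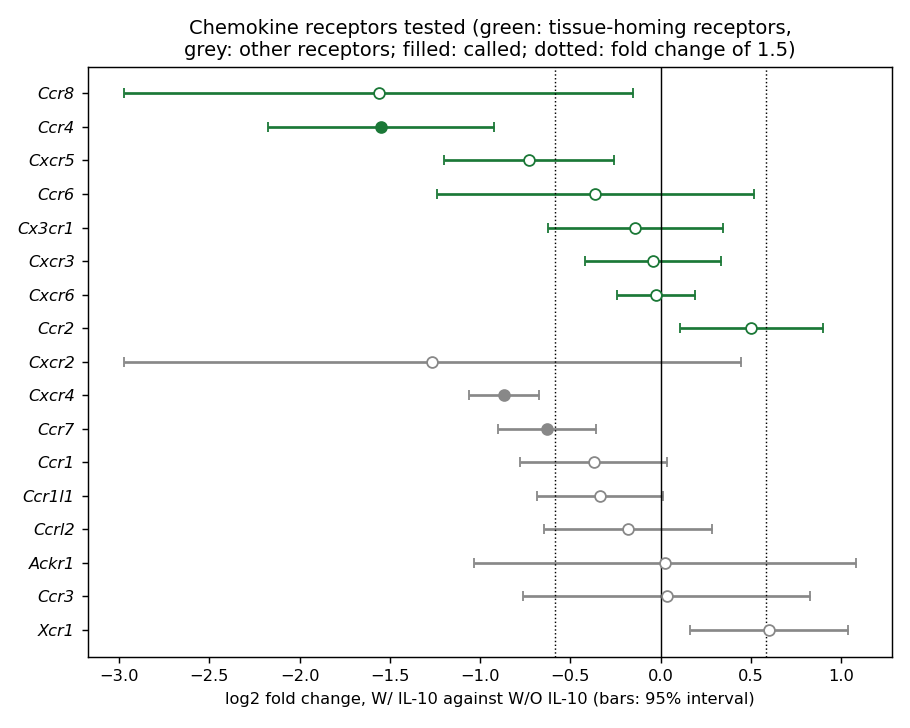
Log2 fold change, W/ IL-10 against W/O IL-10, with its 95% interval for the 8 tested tissue-homing receptors (green) and 9 tested other chemokine receptors (grey); filled points are called and dotted lines mark a fold change of 1.5. Ccr4, Cxcr4 and Ccr7 are called, all lower.

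Ccr4 (ENSMUSG00000047898, chromosome 9 of GRCm38, 114490316 to 114504916) encodes the receptor for CCL17 and CCL22. It had 148, 129 and 96 counts in W/O IL-10 replicates 1 to 3, which were 6.05, 5.34 and 4.14 CPM. W/ IL-10 replicates 1 to 3 had 42, 48 and 26 counts, which were 2.04, 2.13 and 1.14 CPM. All control libraries were thus well above all treated ones. Control libraries averaged 5.17 ± 0.966 CPM, whereas treated libraries averaged 1.77 ± 0.549 (SD, n = 3), and the fitted log2 fold change was -1.55 (standard error 0.28, 95% interval -2.18 to -0.92, adjusted p = 0.0291, edgeR), or 65.9% lower. Leaving out any one library moved it only from -1.71 to -1.31. The call did not hold, however, without W/O IL-10 replicate 2 (adjusted p = 0.102), W/ IL-10 replicate 1 (0.102), W/ IL-10 replicate 2 (0.0774) or W/ IL-10 replicate 3 (0.128, all edgeR).

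The ligands of CCR4 were counted in the same libraries. Ccl22 had 514, 230 and 137 counts in the W/O IL-10 libraries and 78, 40 and 6 in the W/ IL-10 libraries, without overlap. Its log2 fold change was -2.67 (standard error 0.69), which did not pass the test (adjusted p = 0.102, edgeR). Ccl17 had 5 to 18 counts W/O IL-10 and 0 to 6 W/ IL-10 and was not tested. Ccl22 and Ccl17 were also on the list of dendritic cell markers, whose part in these values was not tested.

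The promoters are shown because Ccr4 was the member that fell and IL-10 acts through STAT factors. RefSeq promoters on GRCm38.p6 were matched for 8 of the 9 members, and Cxcr5 had none. The 250 bases before each start were searched on both strands. The motif TTCNNNGAA of STAT factors was held by 7.02% of the 32851 promoters in the table. For the motif AGATAA, which GATA factors bind, this share was 9.99%. For the T-box factors they were GGTGTGA, with 3.33%. Capitals mark the matches, and each sequence is written 5′ to 3′ along the strand of its gene. The promoter of Ccr4 (chr9:114496545-114496794, minus strand) had no match to any of the 3. This window lies within the span of the Ccr4 gene given above, so the result holds for this start only.
Ccr4: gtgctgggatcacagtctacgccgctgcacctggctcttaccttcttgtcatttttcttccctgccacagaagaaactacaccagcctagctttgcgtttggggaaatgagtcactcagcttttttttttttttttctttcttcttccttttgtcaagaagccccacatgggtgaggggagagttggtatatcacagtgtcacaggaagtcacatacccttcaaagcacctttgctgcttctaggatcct
That of Ccr8 (chr9:120091883-120092132, plus strand), the other receptor of type 2 cells, had 1 match to the GATA motif, read on the opposite strand and beginning 239 bases before the start.
Ccr8: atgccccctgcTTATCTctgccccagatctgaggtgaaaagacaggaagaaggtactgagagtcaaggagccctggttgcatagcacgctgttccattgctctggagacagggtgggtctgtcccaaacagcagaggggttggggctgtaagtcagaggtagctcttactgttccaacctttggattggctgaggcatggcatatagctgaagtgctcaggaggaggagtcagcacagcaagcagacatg
That of Ccr6 (chr17:8235793-8236042, plus strand), at the upstream one of its starts, had 2 matches to the STAT motif, beginning 157 and 120 bases before the start. The promoter at its other start (chr17:8242276-8242525), not shown, had no match to the STAT motif and 1 to the GATA motif, beginning 70 bases before the start.
Ccr6: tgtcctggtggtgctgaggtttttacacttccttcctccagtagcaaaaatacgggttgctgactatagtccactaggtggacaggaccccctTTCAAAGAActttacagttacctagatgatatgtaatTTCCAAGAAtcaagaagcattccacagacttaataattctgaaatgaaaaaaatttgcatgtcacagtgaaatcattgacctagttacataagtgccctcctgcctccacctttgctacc
That of Ccr2 (chr9:124101933-124102182, plus strand), the member with the highest CPM, had 1 match to the GATA motif on the opposite strand, beginning 97 bases before the start. Most of this window lies within the span of the Ccr2 gene, which begins at 124101950.
Ccr2: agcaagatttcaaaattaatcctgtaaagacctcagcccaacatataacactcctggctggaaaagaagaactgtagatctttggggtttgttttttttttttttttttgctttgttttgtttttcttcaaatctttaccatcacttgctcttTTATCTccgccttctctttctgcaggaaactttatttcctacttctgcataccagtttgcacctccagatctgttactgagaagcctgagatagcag
Of the 8 matched members, Ccr6 alone held the STAT motif in the windows searched, at 1 of its 2 matched starts, and none held the T-box motif. A match is a stretch of letters and not a measured site.

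Ccr8 (ENSMUSG00000042262, chromosome 9, 120092114 to 120094906), the receptor for CCL1 and CCL8, was near the limit of what these libraries can show. It had 11, 15 and 13 counts W/O IL-10, and 8, 2 and 2 W/ IL-10. Every treated library was thus below 10 counts, where the gene counts as not measured. The fitted log2 fold change was -1.56 with a wide 95% interval, -2.97 to -0.15 (standard error 0.62, adjusted p = 0.284, edgeR). It ranged from -2.62 to -1.21 over the 3 fits without one W/ IL-10 library, and could not be tested without a W/O IL-10 library, which left 2 libraries with 10 counts. Its ligand Ccl1 was expressed, with 665 to 1070 counts W/O IL-10 and 542 to 730 W/ IL-10 (log2 fold change -0.21, adjusted p = 0.650, edgeR).

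Cxcr5 (ENSMUSG00000047880, chromosome 9, 44511787 to 44561877), the receptor for CXCL13 that brings B cells and follicular helper T cells into follicles, had 118, 182 and 146 counts in W/O IL-10 replicates 1 to 3, or 4.82, 7.53 and 6.29 CPM. The W/ IL-10 libraries had 70, 95 and 82 counts, or 3.401, 4.22 and 3.59 CPM. Each treated library was below each control library. It was 39.8% lower by the fit, with a log2 fold change of -0.73 (standard error 0.21, 95% interval -1.20 to -0.26, adjusted p = 0.129, edgeR), which is past the fold threshold but not the adjusted p-value. It was called without W/O IL-10 replicate 1 (log2 fold change -0.90, adjusted p = 0.0237, edgeR).

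B cells carry Cxcr5, so their markers are given beside it. The 7 B cell markers summed to 65.5, 162 and 110 CPM in W/O IL-10 replicates 1 to 3 against 65.6, 112 and 64.2 CPM in the same order W/ IL-10. None of the 7 was called by edgeR, DESeq2 or limma-voom or had an unadjusted p-value under 0.05 in edgeR, and all had a negative log2 fold change, with a median of -0.48 against 0.01 over all tested genes. Within each group the library with the highest marker sum also had the highest Cxcr5. Between groups, W/O IL-10 replicate 1 and W/ IL-10 replicate 1 had nearly equal marker sums and 4.82 and 3.401 CPM of Cxcr5. W/O IL-10 replicate 3 and W/ IL-10 replicate 2 had sums of 110 and 112 CPM and 6.29 and 4.22 CPM of Cxcr5. In the same order, Ccr6 had 1.348 and 0.7288 CPM in the first of these pairs and 0.7322 and 1.155 CPM in the second. These are pairs of single libraries, and the part of B cells in the Cxcr5 values was not tested. For Ccr4, W/O IL-10 replicate 1 had the lowest marker sum of its group and the highest Ccr4, whereas in the W/ IL-10 group the highest sum went with the highest Ccr4 and the lowest with the lowest.

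**Figure D4:**
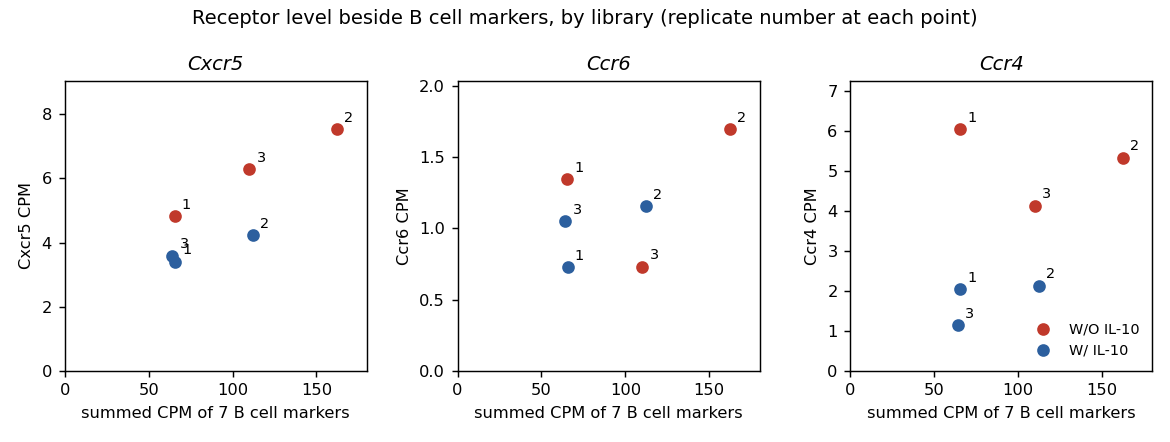
CPM of Cxcr5, Ccr6 and Ccr4 against the summed CPM of 7 B cell markers; each point is 1 library with its replicate number, red W/O IL-10 and blue W/ IL-10. Cxcr5 is highest in the library with the highest marker sum, 162 CPM. At like marker sums the W/ IL-10 points lie lower for Cxcr5 and Ccr4, and on both sides of the W/O IL-10 points for Ccr6. The part of B cells in these values was not tested.

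Ccr6 (ENSMUSG00000040899, chromosome 17, 8236043 to 8257141), the receptor for CCL20 on Th17 cells and B cells, had 33, 41 and 17 counts W/O IL-10 and 15, 26 and 24 W/ IL-10. The groups overlapped, because W/O IL-10 replicate 3 (0.732 CPM) was as low as W/ IL-10 replicate 1 (0.729 CPM). The log2 fold change was -0.36, with a 95% interval of -1.24 to 0.51 (adjusted p = 0.710, edgeR). This interval holds both no change and a decrease of more than 1.5-fold.

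Ccr2 (ENSMUSG00000049103, chromosome 9, 124101950 to 124113557), the receptor for CCL2, CCL7 and CCL12, had the highest CPM of the members in every library, before division by length. Counts were 12542, 18407 and 20164 W/O IL-10 and 21480, 20645 and 24472 W/ IL-10, or 512, 761 and 869 against 1044, 917 and 1072 CPM. The treated libraries lay close together above all controls, and W/O IL-10 replicate 1 lay far below the other controls. The log2 fold change was 0.50 (standard error 0.17, 95% interval 0.11 to 0.90), below the threshold of 0.585, and did not pass the test (adjusted p = 0.218, edgeR). Ccr2 is poor in GC (39.4% of its longest transcript), and W/O IL-10 replicate 1 was low in such genes as a class, where the 875 genes of 36% to 40% GC deviated by a median of -0.48 (log2). Without that library the log2 fold change was 0.30 (adjusted p = 0.144), and with GC content and length corrected it was 0.31 (adjusted p = 0.115, both edgeR). With that correction and the replicate number as a block it was 0.32, still below the fold threshold (adjusted p = 0.0217, edgeR). The part of GC content in the Ccr2 difference was not tested. Ccr2 also marks monocytes. Of the myeloid markers, Csf1r had 2 to 8 counts per library, Lyz2 17 to 88, Cd68 493 to 670, Itgax 461 to 1128 and Ly6c2 7442 to 15816. In CPM, 4 of the 11 tested (Itgax, Cd68, Xcr1 and Ly6c2) lay above all controls in every W/ IL-10 library. Another 3 (Cd14, Zbtb46 and Ccl22) lay below all controls. Over all tested genes these shares were 11.3% and 11.2%. The part of these markers in the Ccr2 values was not tested. Of the 50-base stretches in the exons of Ccr2, 1.91% also occur in another gene.

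Cxcr6 (ENSMUSG00000048521, chromosome 9, 123806475 to 123811760), the receptor for CXCL16 and a mark of liver-resident T cells, had the second highest CPM. It had 5269, 4610 and 4479 counts W/O IL-10 and 4540, 4166 and 4161 W/ IL-10, which were 200 ± 13.6 and 196 ± 21.4 CPM (SD, n = 3). The groups overlapped fully. At this depth the estimate was tight, with a log2 fold change of -0.03 and a 95% interval of -0.24 to 0.19 (adjusted p = 0.926, edgeR), which leaves out a change of 1.5-fold in either direction. The level of Ccr2 per length was 0.680, 1.14 and 1.29 times that of Cxcr6 in W/O IL-10 replicates 1 to 3 and 1.35, 1.42 and 1.68 times in W/ IL-10 replicates 1 to 3.

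Cxcr3 (ENSMUSG00000050232, chromosome X, 101731535 to 101734269), the receptor for CXCL9 and CXCL10, had 546, 358 and 511 counts W/O IL-10 and 393, 384 and 485 W/ IL-10. W/O IL-10 replicate 2 was the lowest of all 6 libraries, at 14.8 CPM, and the other controls were the highest. The means were 19.7 ± 4.25 and 19.1 ± 2.10 CPM (SD, n = 3), with a log2 fold change of -0.04 and a 95% interval of -0.42 to 0.33 (adjusted p = 0.935, edgeR). This interval also stays within a 1.5-fold change. Of its ligands, Cxcl10 had 77 to 104 counts W/O IL-10 and 44 to 78 W/ IL-10 (adjusted p = 0.421, edgeR), and Cxcl9 had at most 9 counts in each library.

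Cx3cr1 (ENSMUSG00000052336, chromosome 9, 119901616 to 120069879), the receptor for CX3CL1, had 104, 101 and 106 counts W/O IL-10 and 75, 113 and 71 W/ IL-10. The control libraries agreed closely and lay within the range of the treated ones. Its log2 fold change was -0.14, with a 95% interval of -0.63 to 0.34 (adjusted p = 0.806, edgeR). This interval does not leave out a 1.5-fold decrease. Ccr9 (ENSMUSG00000029530, chromosome 9, 123678439 to 123784330), the receptor for CCL25 that guides T cells to the small intestine, had 9, 19 and 3 counts W/O IL-10 and 14, 8 and 7 W/ IL-10. Only 1 library of each group reached 10 counts, so it was not measured.

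A further 15 chemokine receptor genes served as the comparison. Of the 9 that could be tested, none was called higher and 2 were called lower by edgeR, DESeq2 and limma-voom. Cxcr4, the receptor for CXCL12 that keeps cells in bone marrow and lymphoid tissue, had a log2 fold change of -0.87 (53.0 to 29.0 CPM, adjusted p = 0.00271, edgeR). Ccr7, which guides T cells into lymph nodes, had one of -0.63 (100.3 to 64.8 CPM, adjusted p = 0.0364, edgeR). With GC content and length corrected Cxcr4 was called and Ccr7 was not, and likewise without any one library other than W/O IL-10 replicate 1. Cxcr2 had the largest log2 fold change of this list, -1.26, but its value came from 76 counts in W/O IL-10 replicate 1 against 10 to 15 in the other 5 libraries (adjusted p = 0.490, edgeR). The median log2 fold change of the 9 was -0.34, against 0.01 over all tested genes.

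Of the 13 ligands of the members found in the table, 6 could be tested and none was called by edgeR, DESeq2 or limma-voom, while 2 were lower and none higher at an unadjusted p-value under 0.05 in edgeR. These were Ccl22, given above, and Cx3cl1, which had 27 to 36 counts W/O IL-10 and 6 to 17 W/ IL-10 (log2 fold change -1.16, adjusted p = 0.235, edgeR). The median log2 fold change of the 6 was -0.47. Ccl2, Ccl7, Ccl12, Cxcl11 and Cxcl13 were not measured.

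Downstream of the receptors, 36 genes of G protein signaling, desensitization and migration were tested, and 1 was called higher and none lower by edgeR, DESeq2 and limma-voom. Gng2, a G protein gamma subunit, rose from 110 ± 3.91 to 187 CPM (log2 fold change 0.76, adjusted p = 0.00284, edgeR). Arrb1 and Pik3r5 fell by less than the fold threshold. Arrb1, which encodes an arrestin that shuts receptors off, changed by -0.43 (log2, adjusted p = 0.0447), and Pik3r5, a regulatory subunit of the PI3K gamma that G proteins activate, by -0.41 (adjusted p = 0.0269, edgeR). The other genes of the list, among them Gnai2, Dock2 and Rac2, had no adjusted p-value under 0.05, and the median of the list was 0.07 on the log2 scale.

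Transcription factors known to accompany these receptors in T cell subsets were tested as the last list. Of 18, none was called by edgeR, DESeq2 or limma-voom. At an unadjusted p-value under 0.05 in edgeR, 4 were higher and 7 lower, against 1130 and 1069 of all 14916 tested genes. An adjusted p-value under 0.05 at any fold change was found for 4 of the 18, against 2.19% of all tested genes. The median log2 fold change of the list was -0.23. Eomes (-0.51, adjusted p = 0.0176) and Maf (-0.52, adjusted p = 0.0272) fell by less than the fold threshold. Tbx21, the T-bet gene known to drive Cxcr3, changed by 0.45 (log2, adjusted p = 0.0467) and Batf by 0.48 (adjusted p = 0.0390, edgeR). Cxcr3 itself had overlapping groups. Gata3, the factor of the type 2 cells that carry CCR4 and CCR8, was not called (log2 -0.27, adjusted p = 0.228, edgeR). Its W/ IL-10 libraries all lay below its W/O IL-10 libraries. This was so for 5 of the 18 factors, while 3 lay above without overlap. Over all tested genes these shares were 11.2% and 11.3%. The part of Gata3 in the Ccr4 and Ccr8 values was not tested. Klf4 was not called either (log2 -0.52, adjusted p = 0.276, edgeR).

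Of the 9 receptors, 7 lie on chromosome 9. Ccr9 and Cxcr6 lie 22.1 kb apart, and Cx3cr1 and Ccr8 lie 22.2 kb apart. In all, 18 other genes next to or overlapping a member could be tested, and none of them was called by edgeR, DESeq2 or limma-voom, with 1 higher and 1 lower at an unadjusted p-value under 0.05 in edgeR. Cxcr6 lies inside the gene body of Fyco1 on the opposite strand and shares no exon bases with it. The exons of Cxcr5 overlap those of the opposite-strand gene Bcl9l over 3.3% of their bases, and Bcl9l had 1111 to 1428 counts per library. Ccr9, which was not measured, shares 18.8% of its exon bases with the opposite-strand gene AC165425.1 and 2.6% with the same-strand gene Gm17200. The sources do not state whether the counting used strand, so reads in the opposite-strand overlaps cannot be assigned to either gene. The part of shared exon bases in the low Ccr9 counts was not tested.

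**Figure D5:**
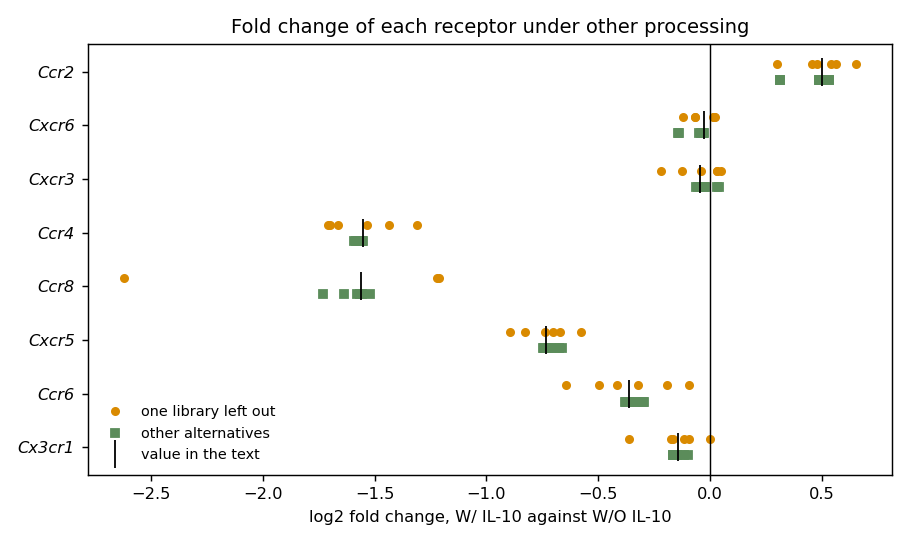
Log2 fold change of each tested receptor, W/ IL-10 against W/O IL-10, in the text (black line), with one library left out (orange circles) and under the other alternatives (green squares). Ccr4, Ccr6 and Cxcr5 stay below 0 and Ccr2 above 0 in every fit shown. Cxcr6, Cxcr3 and Cx3cr1 lie on both sides of 0. Ccr8 also stays below 0, but with 11 alternatives instead of 15 and none without a W/O IL-10 library. It could enter the test only through the W/O IL-10 group, so these fits cannot show whether its direction is stable.

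Across the alternatives, Ccr4 had an adjusted p-value under 0.05 in 10 of 15 and a negative fold change in all 15. The log2 fold change of Ccr2 lay between 0.30 and 0.65, that of Cxcr5 between -0.90 and -0.58 and that of Ccr6 between -0.65 and -0.09.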

How the data were processed

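Per the paper, reads were aligned with TopHat and processed with Cufflinks and UCSC annotation, whereas the submitters' processing notes name HISAT2, HTSeq and GRCm38, without versions. The paper names a NEBNext library kit and the labels a TruSeq kit, and whether counting used strand is not given in the sources used here. The series text speaks of duplicates, but 3 libraries per group are listed. The authors deposited whole-number counts per Ensembl gene, not normalized, in 1 column per library. No pair of libraries was identical. Of 29393 identifiers, 29332 matched GENCODE M21 (GRCm38), which gave symbols, positions and exon lengths.

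A gene entered the test when 3 or more libraries had 10 or more counts for it. It was tested by the quasi-likelihood method of edgeR 4.0.16 (R 4.3.3) with TMM factors, the treatment group as the only term and Benjamini-Hochberg adjustment over all 14916 tested genes. Fold changes were not shrunken, the standard error is the log2 fold change over the square root of F, and 95% intervals use the t distribution. Calls needed a fold change of 1.5, the study's threshold, and an adjusted p-value under 0.05. CPM per kb uses the union of exons. Alternatives were DESeq2 1.42.0, limma-voom (limma 3.58.1), upper-quartile factors, other filters, the replicate number as a block, a per-library spline correction for GC content and length (5 degrees of freedom each), a fold change of 1.5 as the null, and leaving out each library. The fits were tested on simulated data.

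The receptors, gene lists and tests were chosen with earlier results of these data known, and the motifs after the values were seen. Named genes are all 9 receptors, genes of the other lists with an adjusted p-value under 0.05 or the 2 largest changes of a list, neighbours of a receptor, and markers by list. Ccl1, Ccl17, Cxcl9, Cxcl10, Gata3, single myeloid and plasmacytoid dendritic cell markers and some unchanged genes were named outside this rule, after their values were seen. Ccl8 and Ccl20 were not analysed here, and some genes of the lists are not reported here and were left out of their counts. Plots used Python 3.11.15 and matplotlib 3.10.9.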

Additional observations from a re-analysis of the deposited data

How the results depend on the processing

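Of 116 fold changes of the receptors under an alternative, 100 kept both direction and call, and 9 changed sign, all of them of receptors with overlapping groups. The log2 fold change of Cxcr3 was 0.0328 after the GC and length correction and 0.0425 with the replicate block added, and lay between -0.2179 and 0.0483 with one library left out. That of Cxcr6 lay between -0.1205 and 0.0225 and that of Cx3cr1 between -0.3603 and 0.0020 with one library left out. Without a filter on low counts 2 receptors were called lower, the added one being Cxcr5, 1 ligand (Ccl22) was called and 639 genes were called in all. With a fold change of 1.5 as the null, 15 genes were called, and of the receptors, the other chemokine receptors and the signaling genes 0 each. DESeq2 called 359 genes. After the GC and length correction 1 of the other chemokine receptors was called (Cxcr4). The same replicate numbers appear in both groups, but the deviations of same-numbered libraries correlated by only 0.0524, -0.0573 and 0.114, so the numbers were not taken to pair them. The replicate block gave 196 called genes in all, 1 receptor called lower (Ccr4) and 1 ligand (Ccl22). The block with the GC and length correction gave 331 genes, 1 of the other chemokine receptors and 1 ligand (Ccl22). With each library left out in turn, 0 to 2 receptors were called lower, 1 to 2 of the other chemokine receptors and 35 to 254 genes in all, with 75 genes without W/O IL-10 replicate 2 and 57, 98 and 35 without W/ IL-10 replicates 1, 2 and 3. The cause of these changes was not tested. Ccr2 had an adjusted p-value under 0.05 in 2 of 15 alternatives, each time below the fold threshold. The order of levels per length was the same with the longest transcript in both groups. Low counts limit Ccr8, Ccr9 and Ccr6, which had at most 41 counts in a library.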
